A study of Mus musculus with 7 samples.

Results

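Foxp and Foxo genes encode transcription factors of the forkhead family, which bind DNA through a winged-helix domain. Their transcripts were followed in bone marrow mesenchymal stromal cells of mice given an inhibitor of fibroblast activation protein (FAP) or its vehicle. The set is Foxp1, Foxp2, Foxp3, Foxp4, Foxo1, Foxo3 and Foxo4, 7 of the 53801 gene identifiers in the count tables. The set was chosen by a measured value, since Foxp2 had the smallest p among named genes with a lower estimate in treated mice. The difference of Foxp2 between the groups is therefore a description without a test, and the other 6 members entered by family.

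All mice were male C57BL/6, 8 weeks old when treatment began, and carried no labelled allele or transgene. One group of 4 mice received the FAP inhibitor (FAPi) at 500 µg/kg by daily intraperitoneal injection for 35 days, and the vehicle group of 3 mice received DPBS, a buffered saline, on the same schedule; each injection was 100 µl. FAP is a serine protease on the surface of stromal cells, and the sources used here do not name the compound. From the limb bones, 7000 live cells per sample were sorted as Pdgfra+ CD45- Ter119- Tie2-, and 1 RNA-seq library was made from each. The numbers of libraries equal the numbers of mice per group, though the labels do not state that each library is 1 mouse. The p-values measure the spread between these libraries, which may be partly technical.

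Foxp proteins act mostly as transcriptional repressors and pair with each other through a leucine zipper. Foxp1 is best known from B cell development, Foxp2 from vocal and motor circuits of the brain, and Foxp3 as the factor that defines regulatory T cells. Foxo proteins activate genes of cell cycle arrest, oxidative stress defence and autophagy. Insulin and growth factor signalling through PI3K and Akt phosphorylates Foxo proteins, which then bind 14-3-3 proteins and leave the nucleus, so their activity is set largely after transcription; in mice Foxo factors have been studied in osteoblasts and marrow stroma.

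Library totals ran from 9228260 to 10569690 counts in DPBS and from 7492570 to 9226841 in FAPi (exact two-sided permutation p = 0.05714, where 0.02857 is the smallest that 3 against 4 libraries allow). Stromal markers were abundant, with Cxcl12 at 18232 ± 1953 CPM (counts scaled to library size with TMM factors, here written CPM; SD, n = 3) in DPBS and 18141 ± 2236 (n = 4) in FAPi, and Lepr at 1485 ± 228 and 1638 ± 222. Pdgfra was detected at 315 to 364 CPM in DPBS and at 381 to 438 in FAPi. These groups did not overlap, as for 3.39% of all tested genes with FAPi higher (adjusted p = 0.836, edgeR). Across all libraries Tek, which encodes Tie2, lay between 0 and 1.60 CPM and Ptprc, which encodes CD45, between 0.268 and 5.26. Transcripts of blood cells were present all the same. All 9 tested erythroid and all 9 tested neutrophil markers had lower estimates in FAPi, against 49.4% of all tested genes. At an unadjusted edgeR p under 0.05, 5 erythroid and 7 neutrophil markers were lower, against 3.69% of all tested genes. Groups were apart with FAPi lower in 0 erythroid and 4 neutrophil markers, against 3.95% of all. None of these markers passed an adjusted p of 0.05 in edgeR, whereas DESeq2 called 3 neutrophil markers lower, Lcn2 (adjusted p = 0.00226), S100a8 (0.0383) and Mmp8 (0.0420). DESeq2 called 51 of all 12930 tested genes lower. Whole RNA of a sorted population cannot tell fewer cells of a type from less RNA per cell.

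Foxp2 transcripts were fewer in every FAPi library than in any DPBS library. The gene (ENSMUSG00000029563, mm10 chromosome 6, 14901349 to 15441977, plus strand) had 75.1, 81.9 and 117 CPM in DPBS replicates 1 to 3, from 779 to 1249 counts. It had 20.5, 21.1, 20.3 and 26.3 CPM in FAPi replicates 1 to 4, from 164 to 189 counts. The FAPi libraries lay close together and well below the lowest DPBS library. Group means were 91.4 ± 22.6 CPM and 22.0 ± 2.84 CPM, a log2 difference of -2.05 ± 0.34 (SE, edgeR), and leaving out any 1 library gave -2.18 to -1.83. The gene next by p among lower estimates was Ldah, at 322 ± 109 CPM in DPBS and 61.8 ± 35.2 in FAPi. No gene of any kind passed an adjusted p of 0.05 in edgeR's quasi-likelihood test, so 0% of the 12930 tested genes were called higher and 0% lower, the smallest adjusted p being 0.0989; at an unadjusted p under 0.05 the shares were 4.45% higher and 3.69% lower, and DESeq2 called 84 genes higher and 51 lower at its adjusted p of 0.05.

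**Figure D1:**
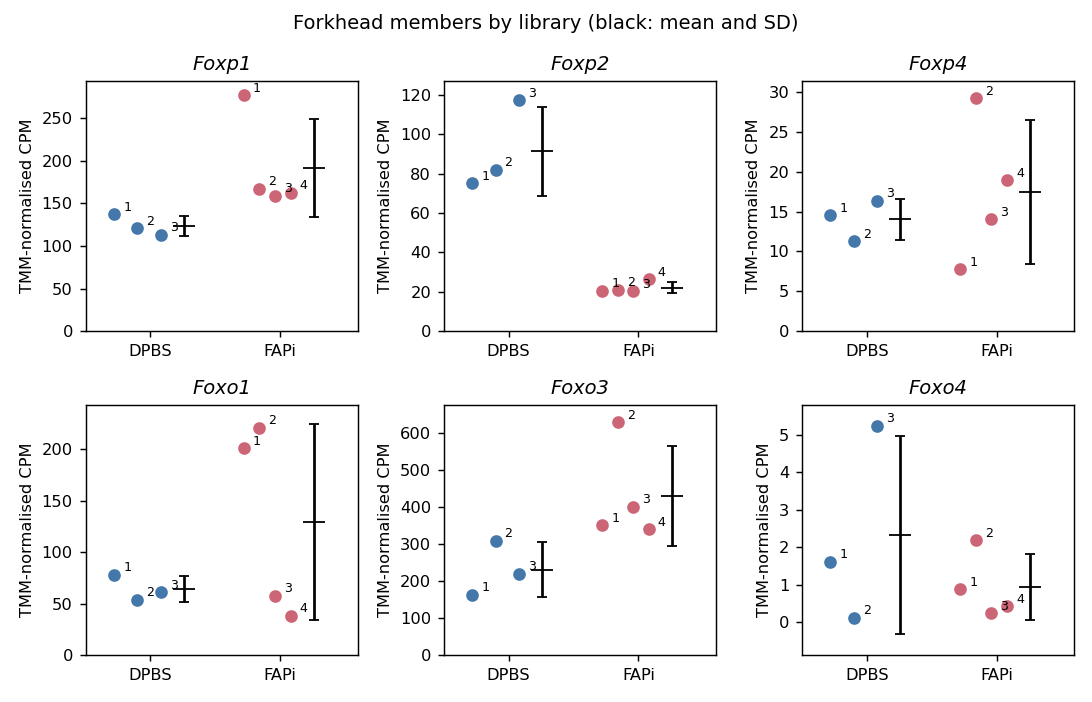
TMM-normalised CPM of the 6 detected members in each of the 3 DPBS and 4 FAPi libraries, numbered by replicate, with the group mean and SD in black. Foxp2 lies between 75.1 and 117 in DPBS and between 20.3 and 26.3 in FAPi, whereas Foxo1 splits the FAPi libraries into 2 above 200 and 2 within or below the DPBS range.

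Foxp1, a partner with which Foxp2 can form dimers, had the opposite sign to Foxp2. Its level was 137, 121 and 113 CPM in DPBS replicates 1 to 3 and 277, 167, 159 and 162 CPM in FAPi replicates 1 to 4. Every FAPi library was above every DPBS library, and FAPi replicate 1 stood far above the other 3. The log2 difference was 0.63 ± 0.29 (SE; adjusted p = 0.615, edgeR), and it was 0.39 without FAPi replicate 1. Among all tested genes, 3.39% had groups that did not overlap with FAPi higher and 3.95% with FAPi lower; of the 6 tested members, Foxp1 and Foxo3 were apart and higher, and Foxp2, by which the set was chosen, was apart and lower.

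FAPi replicate 1 also held many B cell transcripts, a lineage in which Foxp1 is expressed. The B cell markers other than Ebf1, which stroma expresses too, summed to 233 CPM in FAPi replicate 1 and to 18.1 to 29.5 CPM in the other FAPi libraries. They summed to 240 CPM in DPBS replicate 2, whose Foxp1 level of 121 CPM lay between those of the other DPBS libraries, which had 29.7 and 40.4 CPM of these markers. Kdr, an endothelial receptor singled out after its values were seen, was at 339 CPM in FAPi replicate 1 and at 3.16 to 15.4 CPM in the other 6 libraries. None of the other listed endothelial markers had its highest level in FAPi replicate 1. Cdh5 was at 1.88 CPM there, Emcn at 3.75, Vwf at 8, Pecam1 at 12.1 and Egfl7 at 14.1. The part of B cells or endothelial cells in the Foxp1 value was not tested.

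Foxp1 lies on chromosome 6 (ENSMUSG00000030067, mm10, 98925338 to 99522721, minus strand). Of its 3 matched start windows, 2 carry letters of a forkhead motif and are shown because forkhead factors bind letters of this kind. RefSeq windows of 300 bases (GRCm38.p6) ran from 250 before to 50 after an annotated start. They were matched for 5 of the 7 members, with 8 windows in all. No window was matched for Foxp2 or Foxo4, so their starts were not searched. ATAAACA, searched on both strands, was found in 3 of the 8 windows and in 4.60% of all 32851 windows. The related GTAAACA, which shares all letters but the first, was found in 0 of the 8 and in 3.65% of all. The remaining Foxp1 window, at chr6:99028249-99028548, held neither. The 3 matches are printed 5′ to 3′ on the strand of the gene with the motif or its reverse complement, TGTTTAT, in capitals. They lie 92 and 77 bases before a Foxp1 start, at chr6:99521052-99521112 and chr6:99266559-99266619, and 178 bases before a Foxp3 start, at chrX:7579471-7579531.
Foxp1, first start: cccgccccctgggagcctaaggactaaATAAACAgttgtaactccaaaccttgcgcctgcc
Foxp1, second start: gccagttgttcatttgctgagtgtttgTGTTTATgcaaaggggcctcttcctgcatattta
Foxp3: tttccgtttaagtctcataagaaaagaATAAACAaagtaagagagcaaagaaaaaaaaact
A match of letters is not a binding site, and binding was not measured in these samples.

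Foxp4, a widely expressed member (ENSMUSG00000023991, chromosome 17, 47867133 to 47924645, minus strand), had 14.5, 11.3 and 16.3 CPM in DPBS and 7.75, 29.2, 14.0 and 18.9 CPM in FAPi. The FAPi libraries spread on both sides of the DPBS range. The log2 difference was 0.31 ± 0.55 (SE; adjusted p = 0.932, edgeR) and changed sign without FAPi replicate 2, to -0.06. Foxp3 (ENSMUSG00000039521, chromosome X, 7573644 to 7595245, plus strand) had 0 counts in all 7 libraries, which allows up to 0.268 to 0.417 CPM depending on the library (3 counts, counting error only). The T cell markers Cd3e, Cd3d, Cd8a and Ctla4 were also at 0 counts in every library, while Lck reached 21.7 CPM in FAPi replicate 3.

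The summed Foxp level overlapped between groups, while the share of Foxp2 in it did not. On the scale of CPM per kilobase of merged exons, the Foxp genes summed to 17.5, 16.1 and 18.7 in DPBS and to 23.0, 19.3, 15.6 and 17.3 in FAPi. Foxp2 made up 26.3%, 31.2% and 38.3% of that sum in DPBS and 5.46%, 6.68%, 7.95% and 9.32% in FAPi. The ratio of Foxp2 to Foxp1 per kilobase was 0.635 ± 0.212 in DPBS and 0.103 ± 0.0305 in FAPi. These shares hold the Foxp2 values by which the set was chosen and carry no test.

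Foxo3, the most abundant member, had groups that did not overlap. Its level was 163, 309 and 219.7 CPM in DPBS replicates 1 to 3 and 350.5, 629, 400.1 and 339 CPM in FAPi replicates 1 to 4 (ENSMUSG00000048756, chromosome 10, 42181841 to 42276755, minus strand). The lowest FAPi library stood a little above DPBS replicate 2, and FAPi replicate 2 stood well above the rest. Means were 230.4 ± 73.6 and 430 ± 136 CPM. The log2 difference was 0.90 ± 0.31 (SE; unadjusted p = 0.0155, adjusted p = 0.509, edgeR), and without any 1 library it ranged from 0.65 to 1.17.

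Foxo1, the member most studied in insulin signalling, was high in 2 FAPi libraries. It had 78.0, 53.5 and 60.9 CPM in DPBS and 201, 221, 57.4 and 38.0 CPM in FAPi (ENSMUSG00000044167, chromosome 3, 52268336 to 52353221, plus strand). FAPi replicates 1 and 2 were above every DPBS library, replicate 3 was inside the DPBS range and replicate 4 below it. The log2 difference was 1.01 ± 0.57 (SE; adjusted p = 0.695, edgeR) and fell to 0.60 without FAPi replicate 2. An antisense gene, Gm20402, covers 7.78% of the Foxo1 exons, and the labels do not say whether reads were counted by strand.

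Foxo4 was close to the limit of detection (ENSMUSG00000042903, chromosome X, 101254528 to 101260873, plus strand). It had 18, 1 and 56 counts in DPBS, or 1.61, 0.105 and 5.26 CPM, and 7, 17, 2 and 3 counts in FAPi, or 0.875, 2.19, 0.232 and 0.417 CPM. DPBS replicate 3 held most of the DPBS reads. The log2 difference of -1.31 ± 1.23 (SE; adjusted p = 0.835, edgeR) became 0.10 without DPBS replicate 3 and -2.18 without FAPi replicate 2. Summed per kilobase, the Foxo genes came to 31.0, 47.0 and 37.6 in DPBS and 69.7, 109.3, 59.5 and 49.3 in FAPi. Foxo3 made the larger part of every sum, and the ratio of Foxo1 to Foxo3 per kilobase was 0.271 ± 0.136 in DPBS and 0.258 ± 0.187 in FAPi.

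**Figure D2:**
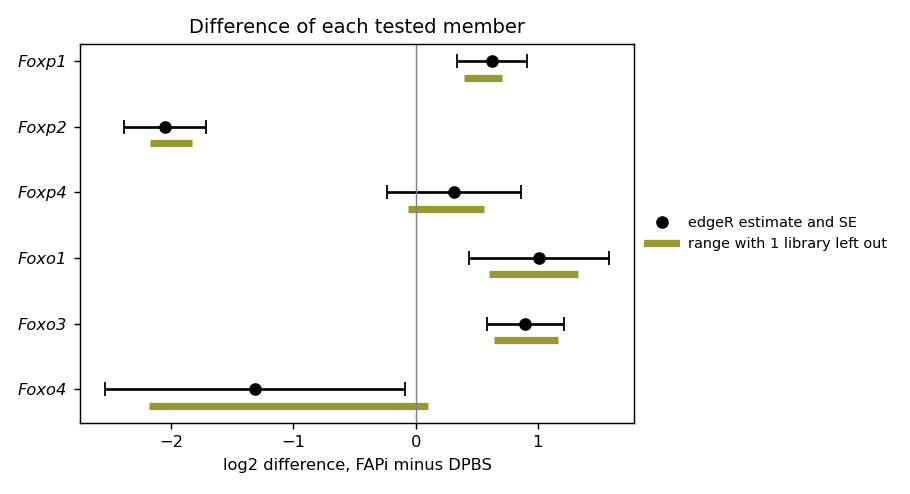
Log2 difference of each tested member, FAPi minus DPBS, as the edgeR estimate with its SE (black) and the range of estimates when each of the 7 libraries is left out in turn (bar). Foxp2, at -2.05, stays below -1.8 in every such fit, whereas the bars of Foxp4 and Foxo4 cross 0.

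Ordered by mean level per kilobase over the 7 libraries, Foxo3 came first at 45.5 ± 19.7 CPM per kb, followed by Foxp1 at 11.8 ± 3.98, Foxo1 at 11.7 ± 8.78, Foxp4 at 3.25 ± 1.39, Foxp2 at 3.17 ± 2.41 and Foxo4 at 0.438 ± 0.520 (SD, n = 7). Foxo3 ranged from 21.5 to 83.1 and, on merged exons, did not overlap Foxp1, whose highest library was 20.1. Foxp1 and Foxo1 overlapped, as did Foxp4 and Foxp2. The order of those last genes depended on the group. Foxp2 exceeded Foxp4 in all 3 DPBS libraries, at 4.60 to 7.17 CPM per kb, and on merged exons was below it in all 4 FAPi libraries. With the longest annotated transcript as the length, the means were 22.6 CPM per kb for Foxp1 and 7.66 for Foxp2, which placed Foxp2 above Foxp4. On that length Foxo3, from 23.8, overlapped Foxp1, up to 38.6, and Foxp2 exceeded Foxp4 in FAPi replicate 1 as well, at 3.03 against 1.94 CPM per kb.

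**Figure D3:**
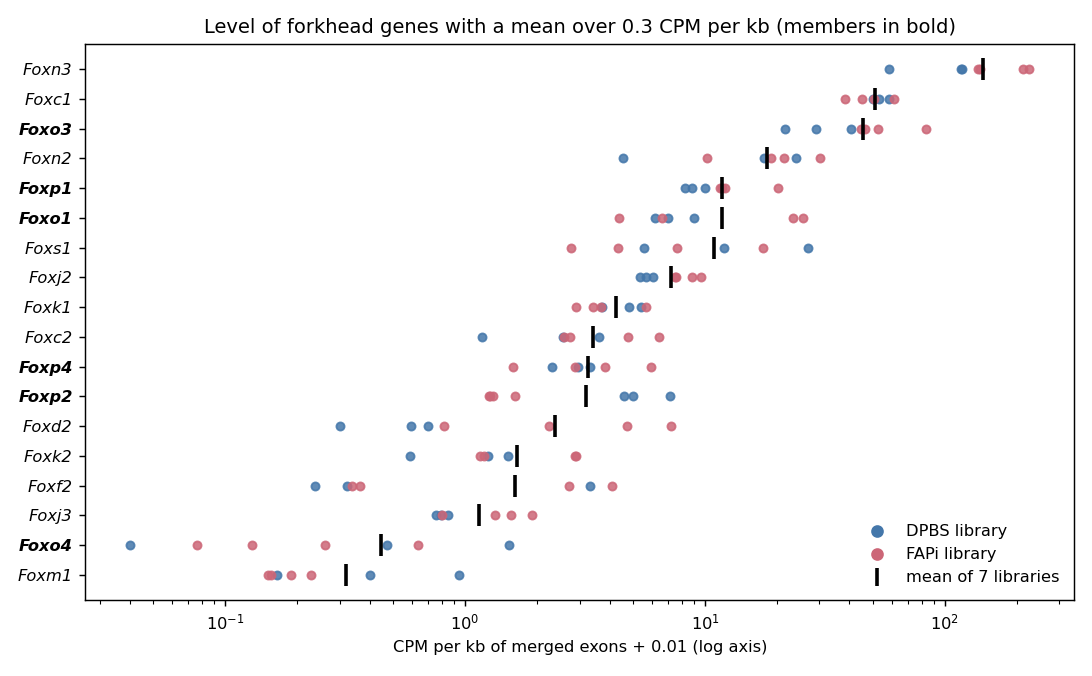
Level per library of the forkhead genes with a mean over 0.3 CPM per kilobase of merged exons, on a log axis after adding 0.01, with the mean of 7 libraries as a bar and members in bold. Foxo3 comes after Foxn3 and Foxc1, and the DPBS and FAPi libraries of Foxp2 form separate clusters.

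Among the other 37 forkhead genes, 21 had 0 counts in every library, Foxo6 among them, and 12 were tested. Foxn3, a repressor, was the most abundant at 144 ± 57.9 CPM per kb, ahead of Foxc1, which maintains the marrow niche of stroma, at 51.0 ± 7.70, and Foxn2 at 18.1 ± 8.55. Estimates were higher in FAPi for 8 of the 12 and lower for 4, with a median of 0.55 on the log2 scale against 0.01 over all tested genes. None was called. At an unadjusted p under 0.05, 2 of the 12 were higher, against 4.45% of all tested genes. In 3 the FAPi libraries were all above the DPBS libraries, against 3.39% of all tested genes. Foxn3 had 675, 1351 and 1337 CPM in DPBS and 1587, 2592, 1617 and 2443 in FAPi, a log2 difference of 0.88 ± 0.30 (SE; adjusted p = 0.509, edgeR). Foxd2 had 1.52, 1.79 and 0.751 CPM in DPBS and 18.8, 5.79, 2.09 and 12.2 in FAPi, a log2 difference of 2.83 ± 0.97 (SE; adjusted p = 0.503). Foxj2 had 28.6 to 32.4 CPM in DPBS and 39.9 to 51.5 in FAPi, with a log2 difference of 0.55 ± 0.34 (SE; adjusted p = 0.716). Foxm1, Foxj3 and Foxk2 had overlapping groups and log2 differences of -1.52, 0.81 and 0.87; without DPBS replicate 2, Foxm1 was -0.67 and Foxk2 0.56. Foxc1 differed by -0.14 and Foxn2 by 0.39 on the log2 scale, with overlapping groups; with 1 library left out Foxc1 ranged from -0.26 to -0.05 and Foxn2 from -0.04 to 0.86.

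Upstream of Foxo, 27 of 28 listed genes were tested. The list held genes of the insulin, PI3K, Akt and 14-3-3 pathway and also other enzymes that modify Foxo proteins, such as Crebbp. No gene passed the adjusted threshold in edgeR and 1 did in DESeq2, which called 84 higher and 51 lower among all 12930 tested genes. Of the 27, 18 had higher and 9 lower estimates, and the median was 0.26 on the log2 scale. At an unadjusted p under 0.05, 3 were higher and 1 lower, against 4.45% and 3.69% of all tested genes. Groups were apart with FAPi higher in 2 and lower in 2, against 3.39% and 3.95% of all tested genes. Ywhab, a 14-3-3 protein, had 696, 378 and 559 CPM in DPBS and 229.5, 343, 285 and 350.3 CPM in FAPi. Its groups were apart with FAPi lower, and the log2 difference was -0.85 ± 0.27 (SE; adjusted p = 0.490). The related Ywhae and Ywhaz had estimates of the other sign, 0.64 and 0.66 on the log2 scale, with overlapping groups, and were 0.41 and 0.38 without FAPi replicate 2. Crebbp, an acetyltransferase that acts on Foxo proteins, differed by 1.04 ± 0.37 on the log2 scale (SE; adjusted p = 0.514, edgeR), and Irs1, an adaptor of the insulin receptor, by 1.698 ± 0.71 (adjusted p = 0.574), both with overlapping groups. The opposite-strand gene Gm9747 covers 30.9% of the Irs1 exons. Named after their values were seen, Pik3r1 and Pdpk1 also had groups apart: Pik3r1, a regulatory subunit of PI3K, was at 236.9 ± 34.9 and 296 ± 12.7 CPM, and Pdpk1, a kinase that activates Akt, at 22.5 ± 1.06 and 15.9 ± 4.37.

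Known targets of Foxo had estimates of both signs. Of 30 listed genes, 26 were tested, 11 had higher and 15 lower estimates, none was called, and the median was -0.17 on the log2 scale. Groups were apart with FAPi higher in 1 and lower in 2, against 3.39% and 3.95% of all tested genes. At an unadjusted p under 0.05, where 4.45% of all tested genes were higher, Cdkn1b, an inhibitor of the cell cycle, was the only 1. It had 151, 171 and 246 CPM in DPBS and 277, 632, 270.0 and 306 CPM in FAPi, a log2 difference of 0.97 ± 0.35 (SE; adjusted p = 0.520, edgeR), which was 0.57 without FAPi replicate 2. Sesn3, a stress-response sestrin, and Insr, the insulin receptor, had log2 differences of 1.01 and 1.02 with overlapping groups. Insr is counted among the upstream genes as well, so the target and upstream lists are not separate sets. Sesn3 was 0.64 without FAPi replicate 3, and Insr was 0.47 without FAPi replicate 4 and 0.35 with the replicate number as a block. Txnip, an inhibitor of thioredoxin, Sod2, the mitochondrial superoxide dismutase, and Bcl6, a repressor, had -0.38, 0.42 and -0.86, also overlapping. Txnip was -0.23 without DPBS replicate 1, Sod2 0.25 without FAPi replicate 2 and Bcl6 -1.73 without FAPi replicate 3. Rictor and Bnip3, named after their values were seen, had groups apart with FAPi lower. Rictor was at 24.4 ± 0.414 and 16.6 ± 2.65 CPM, and Bnip3 at 3.24 ± 0.206 and 1.86 ± 0.367 CPM. Bnip3 had only 12 to 39 counts per library. The opposite-strand genes Gm45507 and Gm15441 cover 22.3% of the Bnip3 exons and 19.4% of the Txnip exons.

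Promoter windows were matched for 27 of the 30 targets, with 33 windows. GTAAACA was found in 5 of them, or 15.2%, against 3.65% of all windows. Its longer form GTAAACAA, which contains it, was in 3 of 33 (9.09%) against 1.23% of all. ATAAACA, the motif printed for the members, was in 1 of 33 (3.03%) against 4.60% of all. Of the upstream genes, 1 of 35 windows held GTAAACA. The targets were listed as known Foxo targets, so their share of GTAAACA is not independent of that choice and is no result of these samples. The GTAAACA matches of targets that lie before a start are printed as above, with the motif or its reverse complement, TGTTTAC, in capitals. Sesn1 has a match as well, 22 bases after a start, which is not printed. The printed matches show listed targets that carry, before a start, letters that Foxo factors bind. They lie at chr2:128125788-128125844 for Bcl2l11, chr3:96557809-96557869 for Txnip, chr7:16310067-16310127 for Bbc3 and chr4:134314899-134314959 for Trim63, all on the plus strand and 227, 121, 167 and 194 bases before the start.
Bcl2l11: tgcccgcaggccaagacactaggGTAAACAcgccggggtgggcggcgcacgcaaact
Txnip: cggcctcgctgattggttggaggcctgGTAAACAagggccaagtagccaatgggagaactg
Bbc3: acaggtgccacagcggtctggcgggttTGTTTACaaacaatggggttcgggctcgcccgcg
Trim63: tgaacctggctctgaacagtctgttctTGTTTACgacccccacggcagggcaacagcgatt
Txnip was at 183 ± 32.7 CPM in DPBS and 141 ± 28.6 in FAPi. The cell death gene Bcl2l11 was at 17.5 ± 5.14 and 17.9 ± 10.6 CPM, and Bbc3, another cell death gene, at 3.11 ± 1.41 and 4.44 ± 3.57. Trim63, a muscle ubiquitin ligase, had 0 counts in all 7 libraries. The groups of the detected genes overlapped.

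Partners of the Foxp proteins, mainly subunits of the NuRD and other repressor complexes, were all tested. Of these 18 genes, 14 had higher and 4 lower estimates, and the median was 0.25 on the log2 scale. None reached an unadjusted p under 0.05, where 4.45% of all tested genes were higher and 3.69% lower. No group pair was apart, against 3.39% of all tested genes with FAPi higher and 3.95% with FAPi lower. The smallest p belonged to Mta2, a NuRD subunit, with a log2 difference of 0.78, which was 0.51 without FAPi replicate 3 and 1.27 without the 2 libraries richest in B cell transcripts. Hdac1, a deacetylase, had 0.55, which became -0.01 without FAPi replicate 1. Among 6 listed Foxp targets, mostly known from brain, 2 had higher and 4 lower estimates. Cntnap2, a cell adhesion gene that Foxp2 represses in neurons, had 8.03, 4.63 and 9.85 CPM in DPBS and 10, 40.8, 83.6 and 12.8 CPM in FAPi. Its groups were apart by a narrow gap, the log2 difference was 2.29 ± 0.76 (SE; adjusted p = 0.490, edgeR), and it was 1.51 without FAPi replicate 3. Vldlr, a reelin receptor, and Srpx2, a secreted protein, had -0.63 and -0.19 with overlapping groups. Vldlr was -0.27 without DPBS replicate 3, and Srpx2 ranged from -0.32 to -0.09 with 1 library left out.

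Foxp2 was set beside transcripts of blood cells, since these also varied between libraries. Hemoglobin genes took 0.704%, 1.52% and 0.162% of counts in DPBS and 0.270%, 0.202%, 0.286% and 0.141% in FAPi (exact two-sided permutation p = 0.114). DPBS replicate 3 had the highest Foxp2 of all libraries and a hemoglobin share inside the FAPi range. Neutrophil markers summed to 652 to 2818 CPM in DPBS and 193 to 614 in FAPi, sums that did not overlap. Of these 10 markers 9 were tested and 1 was at 0 counts throughout. The part of hemoglobin or neutrophil transcripts in the Foxp2 values was not tested. Without DPBS replicate 2 and FAPi replicate 1, the libraries with most B cell transcripts, all 6 tested members kept their sign, with log2 differences of -2.09 for Foxp2, 0.38 for Foxp1 and 1.25 for Foxo3; leaving these libraries out was decided after the data were seen.

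**Figure D4:**
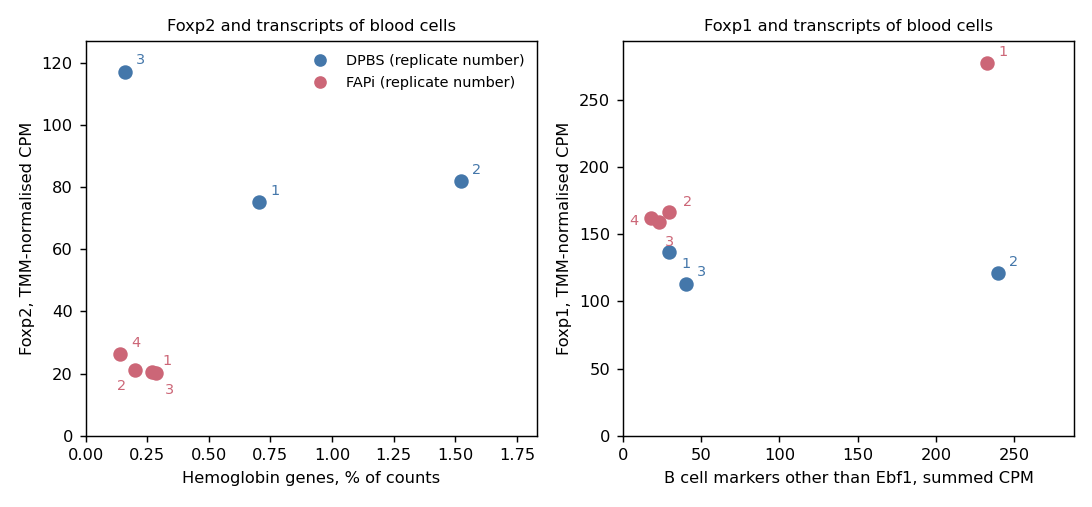
Foxp2 against the hemoglobin share of counts (left) and Foxp1 against the summed CPM of B cell markers other than Ebf1 (right), 1 point per library numbered by replicate. DPBS replicate 3 combines 117 CPM of Foxp2 with 0.162% hemoglobin, and DPBS replicate 2 combines 240 CPM of B cell markers with 121 CPM of Foxp1.

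The genes whose levels most resembled Foxp2 across the 7 libraries were ranked by Pearson correlation of log2 CPM among 9597 tested genes with a mean of at least 5 CPM. Armc8, a part of a ubiquitin ligase complex, came first with 0.99, followed by Apod, a secreted lipocalin, with 0.97, and Rps28, Lgals3bp and Pop7, each with 0.96. Armc8 had 17.8, 18.6 and 20.7 CPM in DPBS and 8.63, 9.52, 9.74 and 11.3 CPM in FAPi, and so shared with Foxp2 its highest DPBS library and its highest FAPi library. The most opposite genes were Pls3, an actin-bundling protein, with -0.98, Gon4l with -0.97 and Man2b2, a lysosomal mannosidase, with -0.96. Gon4l had 2.63 to 3.48 CPM in DPBS and 22.7 to 37.4 in FAPi. In all 8 the groups were apart, so the coefficients include the difference between groups. Rps28 has near-identical copies in the genome, which makes its counts uncertain, and Msto1 on the other strand covers 11.7% of the Gon4l exons. Most like Foxo3 were Igf2r, the receptor that clears insulin-like growth factor 2, with 0.96, Tubb5, a tubulin, with 0.96, and Adam10, a membrane protease, with 0.95; all 3 peaked with Foxo3 in FAPi replicate 2.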

How the data were processed

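RNA-seq libraries were made from 3 DPBS and 4 FAPi samples by a modified Smart-seq2 protocol and sequenced as paired reads, per the labels' protocols. For every library the authors deposited raw counts per gene and a table of CPM. Per the submitters' processing notes, the tools were STAR and HTSeq and the build was mm10; versions and settings are not given there. The deposited CPM equal the count divided by the library total (largest difference 4.55e-05), and 6 of the 7 CPM tables repeat lines, so counts were used and CPM entered only as an alternative.

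Of 53801 gene identifiers, 53706 matched GENCODE M21, which gave symbols, positions and exon lengths. Genes were kept with edgeR's filterByExpr at a minimum count of 10 (12930 genes), scaled by TMM on full library totals, and tested with the quasi-likelihood test of edgeR 4.0.16 in R 4.3.3, FAPi minus DPBS, with Benjamini-Hochberg adjustment over all tested genes at 0.05. The SE is the log2 difference divided by the square root of F. Printed CPM are TMM-normalised. Of the members, 6 of 7 passed the filter; Foxp3 did not. The test was also run on simulated counts with known changes, and the outcome is not given here.

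The members and lists were chosen with earlier results of these data known, and their counts are descriptions. Named genes are the members, up to 6 per list by smallest p (trimmed to 3 for Foxp partners and targets), the 3 most abundant other forkheads, leading or absent markers, and the genes most correlated with Foxp2 or Foxo3. Alternatives were other scalings, no filter, DESeq2 1.42.0, limma 3.58.1, a replicate block and leaving out each library. Each group has only 3 or 4 libraries, which limits precision. Some list genes are counted in the lists but not reported by name here.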

Additional observations from a re-analysis of the deposited data

Results flagged for a closer look

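Within the 4 FAPi libraries, 7 of 48 values checked had 1 library far from the other 3. Chance marks about 1 in 20 independent groups, but these values are not independent, since Adam10 and Igf2r were chosen for their likeness to Foxo3, which peaks in FAPi replicate 2. The measure is the gap to the nearest library divided by the range, with Dixon's 95% critical value as the limit. FAPi replicate 2 was high for Adam10 at 714 CPM against 380.1 to 408 in the others, for Cdkn1b at 632 against 270.0 to 306, and for Igf2r at 161 against 130.5 to 134. FAPi replicate 1 was high for Foxp1 at 277 CPM against 159 to 167, and for Srpx2 at 118 against 82.5 to 87.7. FAPi replicate 3 was high for Bcl6 at 33.9 CPM against 7.37 to 8.88. Foxp2 itself was 26.3 CPM in FAPi replicate 4 against 20.3 to 21.1 in the others, a gap that is small beside the distance to the DPBS libraries. Groups of 3 were not checked.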

How the results depend on the processing

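The number of genes past the adjusted threshold was 0 higher and 0 lower with edgeR. It was 5 and 1 without the filter on low counts, 84 and 51 with DESeq2, and 1 higher with limma voom. Limma on deposited CPM gave 4 and 2 at a pseudocount of 1 or of 0.1. With each library left out in turn, 0 to 2 genes were higher and 0 to 1 lower; the highest counts came without DPBS replicate 3. The cause was not tested. With the replicate block the counts stayed at 0 and 0, and 455 higher and 263 lower genes had an unadjusted p under 0.05, against 576 and 477. Same-numbered libraries did not deviate together (r of -0.01, -0.02 and -0.05), so the numbers were not taken to pair the samples.

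Estimates changed sign with 1 library left out for Foxp4 (-0.0581 to 0.56), Foxo4 (-2.18 to 0.10), Foxn2 (-0.0432 to 0.86) and Hdac1 (-0.0149 to 0.82). Hdac1 was -0.24 without the 2 libraries richest in B cell transcripts. Foxp1, Foxp2, Foxo1 and Foxo3 kept their sign in all 16 alternatives. With the longest transcript as length, Foxp1 moved to 22.6 and Foxp2 to 7.66 CPM per kb. The 8 genes most like or opposite to Foxp2 were the same at a prior count of 0.5. Low counts limit Foxo4 and Foxp3.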
